A study of Mus musculus with 9 samples.

Results

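The collagen gene family was followed across GL261 glioblastoma grown in mice, in a 2D culture with brain cells, and in a 3D fibrin gel with the same cells. Its members were all rows of the deposited table whose symbol has the form Col, a type number, the letter a and a chain number, which gave 44 of 20778 rows. The mean over the 9 libraries was 10 or more for 36 members, which were tested, and lower for 8.

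GL261 is a mouse glioma line, here labelled with mCherry. For the tumour group, 50000 cells were placed in the striatum of male, immunocompetent C57BL/6 mice aged 7 weeks, under ketamine and xylazine. Brains were resected on day 14, with 5 mice stated in the labels. In the 2D culture group (on a dish) and the 3D bioink group (in the gel), GL261 at 1000000 cells per ml grew in a penta-culture with primary astrocytes, microglia, pericytes and endothelial cells from brains of male C57BL/6 mice aged 6 to 10 weeks. These primary cells had been separated with magnetic beads, and the unbound remainder served as astrocytes. Each group had 3 libraries. Only the 3D bioink was digested before RNA extraction, for 3 h with 600 U per ml of collagenase II and then passed through a 70 µm mesh, so the gel and the digestion cannot be told apart. No untreated brain or GL261 monoculture was analysed here, and the labels do not say whether libraries of a group came from separate mice or cultures, so p-values reflect only how these libraries scatter.

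Collagens are proteins of 3 chains wound into a helix, most of them secreted, and chains of the same type combine in fixed ways. Fibrillar collagens (types I, II, III, V and XI among them) form the tensile fibres of connective tissue, type IV forms the sheet of basement membranes, and FACIT collagens sit on the surface of fibrils. Normal brain holds little fibrillar collagen outside its vessels and meninges, and in gliomas collagen is deposited mostly around vessels.

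The values are normalized counts as the authors deposited them, rounded to whole numbers. They summed to 16320090 to 16388074 in tumour libraries, 15572800 to 15711632 in 2D culture and 13548461 to 13683978 in 3D bioink. The read depth is unknown. The library of 3D bioink replicate 1 had the lowest weight of the 9 when libraries were weighted by their spread (0.236, against 0.688 to 4.96). Of the cells named in the labels, microglia had a summed value over 10 marker genes of 27941 to 30440 in tumours, 684 to 772 in 2D culture and 1198 to 1205 in 3D bioink. The microglial genes Aif1, Fcrls and C1qa were listed at 0 to 19 in both cultures. For 10 endothelial markers the sum was 6046 to 6353, 4840 to 5190 and 5764 to 8063 in the same order. Of the 9 tested, 2 were higher and 2 lower in 3D bioink than in tumours, and 1 (Cdh5) was higher and 5 (Cldn5, Vwf and Tie1 among them) lower in 2D culture. For 10 astrocyte markers it was 7559 to 8153, 7483 to 7945 and 9499 to 9703, sums that hide a split. Against tumours, 4 astrocyte markers were higher and 3 lower in 3D bioink. In 2D culture 4 were higher (Gja1 and Fgfr3 among them) and 4 lower (Gfap, 3.57-fold, and Slc1a3, 7.71-fold, among them). Of 8 tested pericyte and mural markers, 2 (Pdgfrb and Notch3) were higher and 4 lower in 2D culture than in tumours, and Vtn and Kcnj8 were listed at 0 in every 2D library. In 2D culture against tumours the shares called were 66.7% for endothelial, 80% for astrocyte and 75% for pericyte markers, against 54.3% of all tested genes. In 3D bioink they were 44.4%, 70% and 75%, against 64.4%. Each value describes a mixture of cells, in which fewer cells of a type and less RNA per cell cannot be told apart.

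Promoter windows are shown for pairs of chains whose values the results turn on. Col1a2 and Col3a1 encode fibrillar chains that stood on opposite sides of the tumour level in 3D bioink. Col4a1 and Col4a2 are transcribed away from each other from overlapping starts, and Col6a1 and Col6a2 are neighbours on the same strand of chromosome 10. Each window is 300 bases around a transcription start, from RefSeq on GRCm38.p6 (mm10), written 5′ to 3′ on the strand of the gene. Capitals mark TATAAA (the TATA box), CCAAT (the CCAAT box) or GGGCGG (the GC box) on either strand, and a longer run of capitals holds matches that overlap.
Col1a2, chr6:4505368-4505667, + strand: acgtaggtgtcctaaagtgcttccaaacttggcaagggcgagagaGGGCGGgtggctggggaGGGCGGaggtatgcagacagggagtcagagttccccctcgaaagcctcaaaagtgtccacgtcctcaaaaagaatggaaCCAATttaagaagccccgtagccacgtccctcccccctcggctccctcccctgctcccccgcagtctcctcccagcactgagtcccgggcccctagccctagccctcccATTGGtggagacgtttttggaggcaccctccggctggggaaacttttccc
Col3a1, chr1:45311288-45311587, + strand: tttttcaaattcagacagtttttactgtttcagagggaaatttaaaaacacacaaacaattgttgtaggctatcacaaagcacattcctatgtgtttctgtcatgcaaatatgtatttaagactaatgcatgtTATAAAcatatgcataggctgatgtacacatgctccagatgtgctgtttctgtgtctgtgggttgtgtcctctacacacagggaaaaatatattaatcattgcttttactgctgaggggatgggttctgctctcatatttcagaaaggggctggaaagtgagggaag
Col4a1, chr8:11312777-11313076, - strand: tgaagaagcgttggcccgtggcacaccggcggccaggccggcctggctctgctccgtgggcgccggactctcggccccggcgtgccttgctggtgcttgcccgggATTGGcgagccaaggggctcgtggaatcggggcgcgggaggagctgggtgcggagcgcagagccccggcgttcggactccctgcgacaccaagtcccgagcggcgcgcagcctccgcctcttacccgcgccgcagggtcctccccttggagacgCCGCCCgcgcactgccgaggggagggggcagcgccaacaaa
Col4a2, chr8:11312555-11312854, + strand: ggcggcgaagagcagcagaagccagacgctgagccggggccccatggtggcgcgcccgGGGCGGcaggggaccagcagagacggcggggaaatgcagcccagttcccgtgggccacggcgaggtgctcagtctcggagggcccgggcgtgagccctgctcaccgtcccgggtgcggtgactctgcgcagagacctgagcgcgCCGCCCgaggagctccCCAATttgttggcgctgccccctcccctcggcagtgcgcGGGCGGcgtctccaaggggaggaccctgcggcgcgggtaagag
Col6a1, chr10:76725995-76726294, - strand: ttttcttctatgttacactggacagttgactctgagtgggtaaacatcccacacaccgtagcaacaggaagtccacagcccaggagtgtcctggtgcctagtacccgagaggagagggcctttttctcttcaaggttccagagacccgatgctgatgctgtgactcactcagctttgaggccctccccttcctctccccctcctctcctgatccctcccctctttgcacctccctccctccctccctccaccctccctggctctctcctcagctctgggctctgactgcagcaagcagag
Col6a2, chr10:76623355-76623654, - strand: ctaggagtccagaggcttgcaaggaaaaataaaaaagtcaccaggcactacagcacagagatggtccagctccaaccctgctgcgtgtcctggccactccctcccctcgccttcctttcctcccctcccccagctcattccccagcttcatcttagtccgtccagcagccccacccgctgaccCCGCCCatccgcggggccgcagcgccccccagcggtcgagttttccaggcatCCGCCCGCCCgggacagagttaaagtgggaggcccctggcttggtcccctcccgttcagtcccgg

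In these letters, GGGCGG occurred 2 times in the Col1a2 window, 1 time in Col4a1, 3 times in Col4a2 and 3 times in Col6a2, and was not found in the windows of Col3a1 and Col6a1. TATAAA was found in the Col3a1 window only among those shown. The Col4a1 and Col4a2 windows share 78 bases, chr8:11312777-11312854. Windows were given for 35 of the 44 genes, 38 in all, and none for Col1a1, Col2a1 or Col5a2. GGGCGG was in 23 of the 38 collagen windows and in 35.7% of all 32851 windows of the table. CCAAT was in 13 of 38 and 37.4%, and TATAAA in 5 of 38 and 13.6%. Among the 6 windows shown, GC content ran from 37.7% for Col3a1 to 74.0% for Col4a1.

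The first comparison asked how collagen expression in the 3D bioink differed from that in tumours. In 3D bioink, most fibrillar, beaded filament and major basement membrane chains were higher, led by Col1a2 (67.8-fold), Col5a2 (35.7-fold), Col6a2 (22.5-fold), Col4a1 (13.7-fold, with a tumour library listed at 0) and Col6a3 (13.4-fold), while the FACIT chains that changed were lower. Of the 36 tested collagens, 19 were higher and 8 lower past an adjusted p of 0.05 (limma, Benjamini-Hochberg over all 13773 genes tested). Across all tested genes, 64.4% were called in either direction, 27.1% higher and 37.3% lower. That split, 3737 higher and 5132 lower, was 4520 and 4193 with equal upper quartiles, where the collagens gave 21 and 6. The libraries of the groups did not overlap for 30 of the 36, against 67.6% of all tested genes. The median log2 difference was 0.58 over the collagens and -0.11 over all tested genes.

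The second comparison set 2D culture against the same tumour libraries. Here 15 collagens were higher and 14 lower, where all tested genes gave 54.3% called, 27.3% higher and 27% lower. Under quantile normalization the collagens gave 15 higher and 9 lower, and all genes 4489 higher and 3058 lower. The median was 0.12 over the collagens and 0.01 over all genes, and 29 of 36 did not overlap (63.9% of all genes). Col1a2 (42.1-fold) and Col6a2 (16.8-fold) were again far above the tumours, and Col23a1 was 11.4-fold below them. These 2 comparisons share the tumour libraries, so their values are given side by side and are not independent.

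The third comparison set 3D bioink against 2D culture. Of the 36 collagens, 21 were higher in the gel and 7 lower, with 59.2% of all tested genes called, 27% higher and 32.2% lower. The 21 include Col24a1, which reached a mean of 10 in 3D bioink alone. With equal upper quartiles the count for all genes turned from 3713 higher and 4435 lower to 4528 higher and 3585 lower, while the collagens gave 21 higher and 6 lower. The median was 0.57 over the collagens and -0.02 over all genes, and 32 of 36 did not overlap (67.1% of all genes). The largest rises were those of Col23a1 (16.4-fold) and Col6a3 (8.99-fold).

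**Figure D1:**
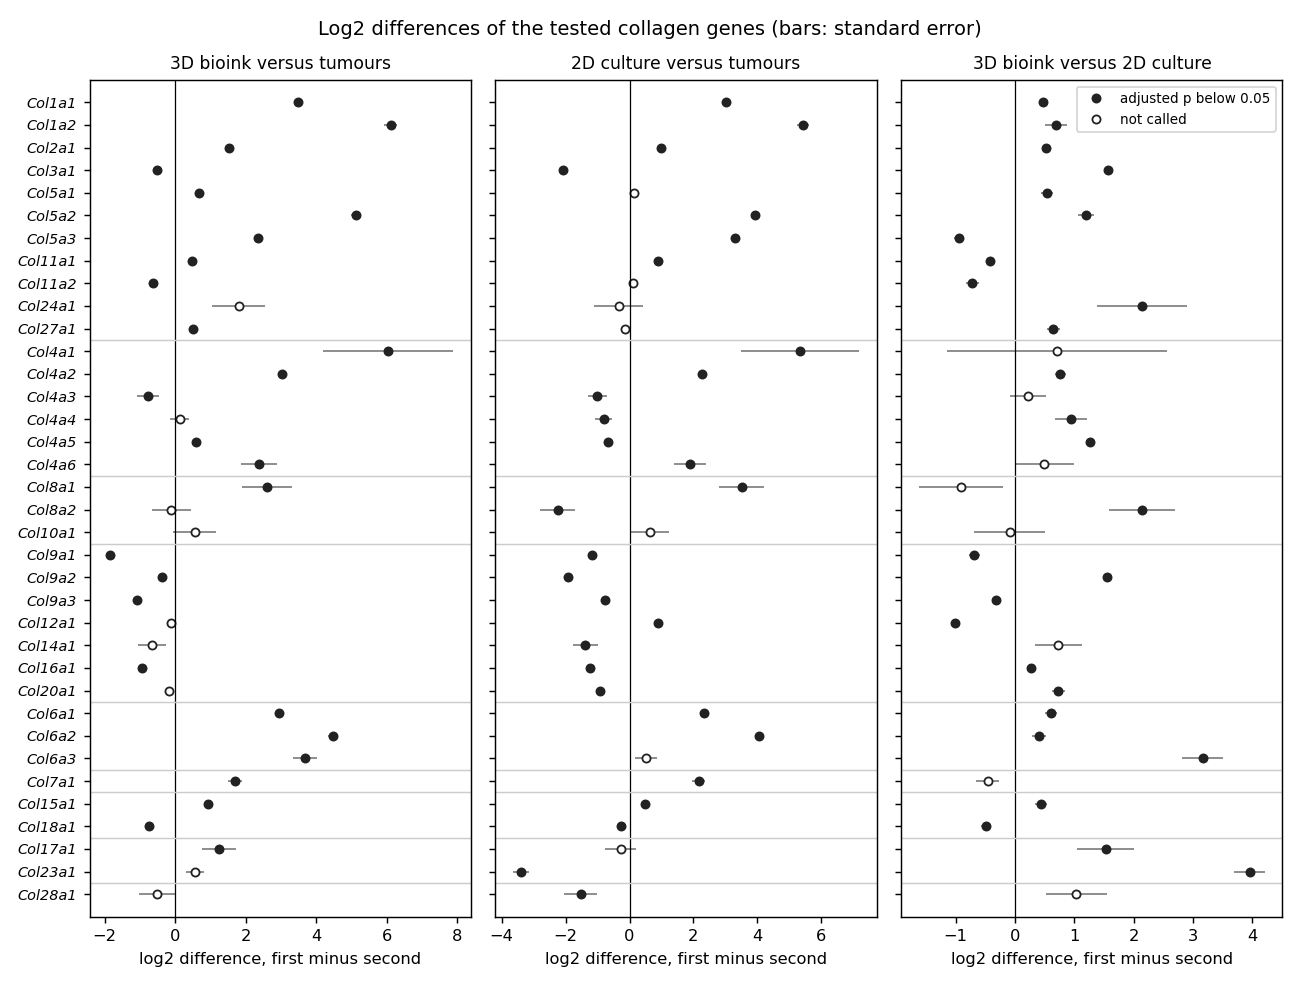
Log2 difference of each tested collagen in the 3 comparisons (horizontal axis, first group minus second), with its standard error as a bar, 1 row per gene in structural classes separated by grey lines. Filled points passed an adjusted p of 0.05 and open points did not. Against tumours, Col1a2, Col5a2 and Col6a2 lie between 3.94 and 6.12 in both cultures, and the wide bar of Col4a1 comes with a tumour library listed at 0.

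Scaling moved the level against which a change is read. The median log2 difference of all genes for 3D bioink against tumours was -0.11 on the deposited scale and 0.07 with equal upper quartiles. For 2D culture against tumours it was 0.01 and 0.18 with quantile normalization, and for 3D bioink against 2D culture it was -0.02 and 0.14 with equal upper quartiles. Shares within a library, given next, are not changed by a single factor per library, as used for equal upper quartiles. Quantile normalization is not such a factor.

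To compare chains with each other, each value was divided by the length of the longest protein-coding transcript of its gene, giving a value per kilobase. Collagens of cartilage (types II, IX and XI) made up 58.7% to 59.4% of the collagen signal per kilobase in tumours, 62.2% to 63.0% in 2D culture and 63.0% to 64.5% in 3D bioink. Within that share the chains differed between the groups. Col2a1, the fibrillar chain of cartilage, ranked first per kilobase in each group, with a share of 21.0% ± 0.054 in tumours, 37.6% ± 0.85 in 2D culture and 42.8% ± 1.0 in 3D bioink (SD, n = 3 each). The type IX chains held 26.5% ± 0.12 in tumours, 8.53% ± 0.072 in 2D culture and 11.7% ± 0.37 in 3D bioink. Type XI held 11.5% ± 0.39, 16.6% ± 0.39 and 9.46% ± 0.34 in the same order.

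The type I chains Col1a1 and Col1a2, the main collagen of scar, skin and bone, had a small share per kilobase in every group. It was 0.50% ± 0.020 in tumours, 5.45% ± 0.043 in 2D culture and 6.38% ± 0.24 in 3D bioink (SD, n = 3 each). Type VI held 0.860% ± 0.064, 4.70% ± 0.18 and 5.84% ± 0.58 in the same order, and Col4a1 with Col4a2 held 0.439% ± 0.12, 2.41% ± 0.37 and 3.13% ± 0.17. Col3a1 held 8.64% ± 0.29, 1.82% ± 0.065 and 4.30% ± 0.33. By class, fibrillar chains held 43.2% in tumours and 66.2% in both cultures. FACIT chains held 40.8% in tumours, 15.2% in 2D culture and 17.3% in 3D bioink. The multiplexins Col15a1 and Col18a1 held 13.4%, 10.2% and 5.99%. All collagens together were 0.770% to 0.792% of the summed values of a tumour library, 0.976% to 1.06% in 2D culture and 1.32% to 1.51% in 3D bioink.

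**Figure D2:**
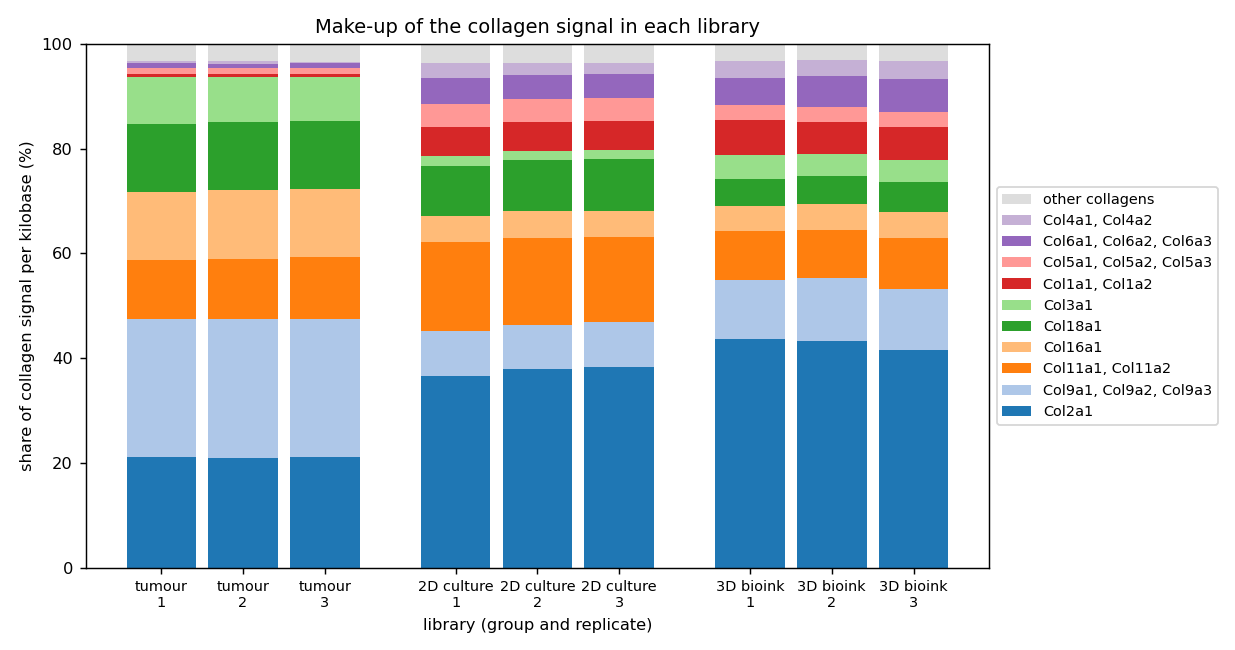
Share of the collagen signal per kilobase of transcript (vertical axis, %) taken by each type or gene in each of the 9 libraries, stacked to 100%. Type IX and Col16a1 narrow from the tumours to both cultures and Col2a1 widens, from 21.0% to 37.6% and 42.8%, while the 3 libraries of a group look alike.

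Fibrillar chains were the largest class, and all 11 were tested. In 3D bioink against tumours 8 were higher and 2 lower (median 1.52). In 2D culture against tumours 6 were higher and 1 lower (0.90). In 3D bioink against 2D culture 8 were higher and 3 lower (0.54). The 8 include Col24a1, which reached a mean of 10 in 3D bioink alone and whose call was not stable, as given below. The shares called were 90.9%, 63.6% and 100%, against 64.4%, 54.3% and 59.2% of all tested genes, so the share for 2D culture lay near that of all genes.

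Col1a1, the alpha 1 chain of type I (chromosome 11, 94936224 to 94953042), had values of 656, 675 and 654 in tumours, 5280, 5347 and 5408 on the dish, and 7367, 7854 and 7125 in the gel. Col1a2, its partner chain (chromosome 6, 4504814 to 4541544), had 114, 66 and 63 in tumours, 3250, 3354 and 3635 on the dish, and 5273, 5777 and 5432 in the gel. For both genes the groups were ordered tumours, 2D culture, 3D bioink with no overlap. Col1a2 differed from tumours by a log2 value of 6.12 (SE 0.19, limma adjusted p = 6.43e-09) in 3D bioink and 5.43 (SE 0.19, adjusted p = 1.02e-08) in 2D culture. The step between the cultures was small beside these, at 0.48 for Col1a1 (adjusted p = 2.32e-05) and 0.69 for Col1a2 (adjusted p = 0.0101).

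Col2a1, the type II chain, had 27364, 26755 and 27465 in tumours, 51176, 53969 and 57612 on the dish, and 74831, 86287 and 74041 in the gel. Its groups were apart and in that same order. It was 2.88-fold above tumours in 3D bioink (log2 1.52, SE 0.07, adjusted p = 7.57e-08) and 1.99-fold in 2D culture (adjusted p = 1.25e-06). Col11a1 and Col11a2 encode type XI chains, which combine with type II in cartilage fibrils. Col11a1 had 15531, 14943 and 15443 in tumours, 28251, 28569 and 28779 on the dish, and 20249, 22453 and 21443 in the gel, so that 2D culture was highest. Col11a2 had 4993, 5414 and 6257 in tumours, 5828, 5739 and 6211 on the dish, and 3089, 3972 and 3807 in the gel. The 3D libraries of Col11a2 lay below all others (log2 -0.62 against tumours, adjusted p = 0.000539), while tumours and 2D culture overlapped (0.10, adjusted p = 0.46).

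Cartilage was examined by other markers, since types II, IX and XI are its usual collagens. The proteoglycan Acan had 156, 159 and 100 in tumours, 145, 130 and 157 on the dish, and 80, 134 and 142 in the gel. Matn1 was listed at 0 in every tumour and 2D library and at 24, 11 and 5 in 3D bioink. Sox9, a transcription factor that drives Col2a1 and Col11a2 in cartilage, had 38, 23 and 33 in tumours, 125, 121 and 166 on the dish, and 413, 580 and 516 in the gel. Comp, also on this list, had 7, 8 and 2 in tumours, 17, 2 and 12 on the dish, and 378, 254 and 195 in the gel. Acan was called in no comparison. The summed value of the 6 cartilage and bone markers was 135 to 201, 255 to 338 and 861 to 983 in the same order. Sox9 and Comp made up most of the sum in the gel. The part of these markers in the result was not tested.

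Col3a1, the type III chain of vessel walls and soft tissue (chromosome 1, 45311538 to 45349706), went against type I. It had 12680, 11957 and 11907 in tumours, 2831, 2884 and 2863 on the dish, and 8730, 8790 and 8091 in the gel. Tumours were highest and 2D culture lowest, with no overlap. It was 4.26-fold lower in 2D culture than in tumours (log2 -2.09, SE 0.05, adjusted p = 7.44e-10) and 2.99-fold higher in 3D bioink than in 2D culture (adjusted p = 1.35e-08). The smaller difference between 3D bioink and tumours (-0.51, adjusted p = 9.74e-06) was lost with quantile normalization, at -0.07 and an adjusted p of 0.26.

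Type V chains nucleate type I fibrils and set their width. Col5a2 had 52, 45 and 36 in tumours, 662, 663 and 734 on the dish, and 1573, 1701 and 1470 in the gel, a rise in both cultures (adjusted p = 1.15e-08 and 2.89e-09). Col5a1 had 1606, 1617 and 1804 in tumours, 1771, 1850 and 1893 on the dish, and 2273, 3061 and 2717 in the gel. For Col5a1 the tumour and 2D libraries overlapped (log2 0.13, adjusted p = 0.287), and 3D bioink stood above both. Col5a3 had 571, 631 and 526 in tumours, 5552, 5584 and 5915 on the dish, and 2836, 3211 and 2846 in the gel. It was the type V chain that was highest on the dish, 9.87-fold over tumours (adjusted p = 8.28e-10), and it fell by 0.94 on the log2 scale from 2D culture to 3D bioink (adjusted p = 4.86e-06).

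The remaining fibrillar genes were Col27a1 and Col24a1. Col27a1 had 605, 572 and 673 in tumours, 537, 515 and 632 on the dish, and 810, 992 and 838 in the gel, which was above both other groups (adjusted p = 0.00286 and 0.000748). Col24a1 was near the filter, with 4, 2 and 16 in tumours, 5, 2 and 6 on the dish, and 35, 11 and 24 in the gel. It passed the filter on the 3D mean alone. Its call between the cultures (log2 2.14, adjusted p = 0.0344) was lost without any 1 of the 2D libraries or without 3D bioink replicate 3 (adjusted p = 0.0501 to 0.113), and with quantile normalization (1.03, adjusted p = 0.32).

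Basement membrane chains (type IV) are made in pairs encoded head to head. All 6 were tested. Against tumours, 4 were higher and 1 lower in 3D bioink, and 3 higher and 3 lower in 2D culture, while 3 were higher in 3D bioink than in 2D culture and none lower. The shares called were 83.3%, 100% and 50%, against 64.4%, 54.3% and 59.2% of all tested genes, so the last lay near that of all genes. Col4a2, with Col4a1 the ubiquitous pair, had 473, 449 and 506 in tumours, 2227, 2151 and 2532 on the dish, and 3676, 4388 and 3693 in the gel. It was 8.23-fold above tumours in 3D bioink (log2 3.04, SE 0.09, adjusted p = 5.43e-09) and 4.84-fold in 2D culture (adjusted p = 2.71e-08).

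Col4a1 had 300, 442 and 0 in tumours, 2829, 2042 and 1536 on the dish, and 3088, 3229 and 3843 in the gel. Tumour replicate 3 was listed at 0 for Col4a1 and at 506 for Col4a2, a gene that overlaps it by 22 bases at the start. The log2 difference for Col4a1 between 3D bioink and tumours, 6.04 (SE 1.85, adjusted p = 0.0163), became 3.21 (adjusted p = 1.16e-05) without that library, and 7.32 and 7.6 without tumour replicate 1 or 2. For 2D culture it was 5.34 (adjusted p = 0.0335) and 2.50 (adjusted p = 5.5e-05) without tumour replicate 3. Without tumour replicate 1 or 2 it was 6.62 or 6.90, and without a 2D library the adjusted p was 0.0646 to 0.0853.

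The other type IV chains are made in fewer tissues. Col4a5 had 1555, 1546 and 1532 in tumours, 918, 977 and 1035 on the dish, and 2354, 2393 and 2295 in the gel. It was the member with the order 3D bioink, tumours, 2D culture called at each step (0.60, -0.66 and 1.27 on the log2 scale, adjusted p at most 1.12e-05). Its partner Col4a6 had 2 to 4 in tumours, 10 to 18 in 2D culture and 14 to 26 in 3D bioink. Col4a3 and Col4a4, which with Col4a5 form the network of the glomerulus, ran from 20 to 48 and from 30 to 80 over all libraries. Col4a3 was lower than in tumours in both cultures (adjusted p = 0.0471 in 3D bioink and 0.0186 in 2D culture) and Col4a4 in 2D culture (adjusted p = 0.0277). The call of Col4a3 in 3D bioink was not stable. It was not among the 7 collagens still lower there with a pseudocount of 0.5 or a replicate block.

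All 3 network-forming short chains were tested. The shares called were 33.3%, 66.7% and 33.3% in the order used above, against 64.4%, 54.3% and 59.2% of all tested genes. Col8a1, a chain of vessel and corneal endothelium, had 39, 4 and 45 in tumours, 236, 210 and 275 on the dish, and 156, 101 and 128 in the gel. It was higher in 2D culture (log2 3.52, adjusted p = 0.00199) and 3D bioink (2.60, adjusted p = 0.00896) than in tumours, and without tumour replicate 2 these were 2.48 and 1.57. Col8a2 had 17, 17 and 47 in tumours, 8, 3 and 3 on the dish, and 26, 19 and 22 in the gel, with 2D culture below both (adjusted p = 0.00616 and 0.00738). With quantile normalization the difference of Col8a2 between the cultures went from 2.14 to 1.13 and lost its call (adjusted p = 0.0987). Col10a1, the chain of hypertrophic cartilage, had 8 to 33 over all libraries and passed no test.

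FACIT chains mostly stood lower in the cultures than in tumours. Of 9 rows, 7 were tested. None was higher and 4 were lower in 3D bioink than in tumours (median -0.65), and 1 was higher and 6 lower in 2D culture (median -1.16). Between the cultures 3 were higher and 3 lower in 3D bioink (0.27). The shares called were 57.1%, 100% and 85.7%, against 64.4%, 54.3% and 59.2% of all tested genes. The share for 3D bioink against tumours was thus below that of all genes, of which 37.3% were lower there.

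The type IX chains cover the surface of type II fibrils. Col9a1 had 5305, 4436 and 5154 in tumours, 2117, 2248 and 2274 on the dish, and 1265, 1544 and 1339 in the gel. Col9a3 had 3779, 4061 and 3746 in tumours, 2224, 2173 and 2366 on the dish, and 1652, 2052 and 1770 in the gel. Both were highest in tumours and lowest in the gel, with log2 differences of -1.84 (adjusted p = 1.17e-07) and -1.09 (adjusted p = 1.83e-06) for 3D bioink against tumours. The step of Col9a3 from 2D culture to 3D bioink (-0.31, adjusted p = 0.00769) was lost with quantile normalization (adjusted p = 0.246) and equal upper quartiles (adjusted p = 0.163). Col9a2 had 12078, 12185 and 12179 in tumours, 3127, 3107 and 3357 on the dish, and 8630, 10653 and 9026 in the gel. For Col9a2 the dish and not the gel was lowest, with a log2 difference of 1.56 between 3D bioink and 2D culture (adjusted p = 1.36e-07). Its difference between 3D bioink and tumours, -0.37 (adjusted p = 0.00154), was 0.067 with quantile normalization and -0.19 (adjusted p = 0.053) with equal upper quartiles.

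Col16a1, a FACIT chain of skin and gut made also by glioma cells, had 17319, 17054 and 17245 in tumours, 7033, 7283 and 7761 on the dish, and 8148, 9833 and 8763 in the gel. Its tumour libraries were the highest, with a log2 difference of -0.95 in 3D bioink (adjusted p = 1.49e-06) and -1.23 in 2D culture (adjusted p = 2.69e-07). Col12a1, a chain of tendon and stressed tissue, had 2622, 2607 and 2746 in tumours, 4892, 4886 and 5011 on the dish, and 2506, 2299 and 2546 in the gel. It was the FACIT chain that rose on the dish (0.89, adjusted p = 3.95e-07). Between 3D bioink and tumours it had -0.12 (adjusted p = 0.0727), which was 0.099 with quantile normalization and 0.065 with equal upper quartiles. Col20a1 had 428, 410 and 432 in tumours, 203, 233 and 234 on the dish, and 365, 343 and 409 in the gel, and Col14a1 ran from 11 to 36 over all libraries.

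**Figure D3:**
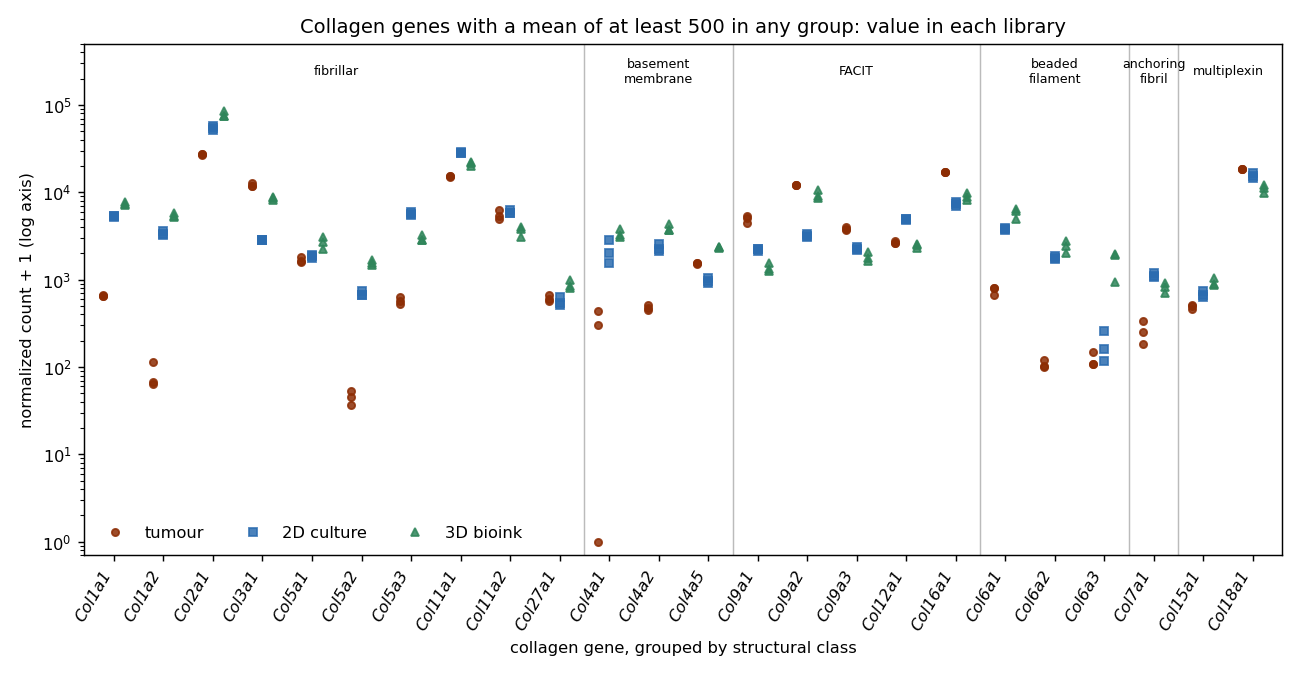
Normalized count plus 1 (vertical log axis) of the 24 collagens with a mean of at least 500 in any group, 1 point per library, in structural classes. Tumour libraries are circles, 2D libraries squares and 3D libraries triangles, and the point at the bottom is Col4a1 in tumour replicate 3, listed at 0.

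Beaded filament chains (type VI) form microfibrils around cells and vessels. Of 6 rows, 3 were tested, and all 3 were higher in 3D bioink than in either other group. Among all tested genes, 27.1% were higher than in tumours and 27% higher than in 2D culture. Col6a1 had 794, 659 and 802 in tumours, 3896, 3666 and 3827 on the dish, and 5016, 6383 and 6113 in the gel. Col6a2 had 98, 120 and 101 in tumours, 1775, 1727 and 1872 on the dish, and 1999, 2755 and 2416 in the gel. Both rose in each culture over tumours, Col6a1 by 2.95 and 2.34 and Col6a2 by 4.47 and 4.07 on the log2 scale in 3D bioink and 2D culture (adjusted p at most 4.85e-08). The step of Col6a2 between the cultures (0.40, adjusted p = 0.0169) was lost without 2D culture replicate 2, 3D bioink replicate 2 or 3D bioink replicate 3 (adjusted p = 0.0507 to 0.0645).

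Col6a3, the large chain that completes the type VI heterotrimer, had another pattern. It had 106, 106 and 148 in tumours, 117, 159 and 261 on the dish, and 942, 1941 and 1947 in the gel. Tumours and 2D culture overlapped (log2 0.51, adjusted p = 0.238), and the gel was 13.4-fold above tumours (3.68, SE 0.34, adjusted p = 8.71e-06) and 8.99-fold above 2D culture (3.16, adjusted p = 3.01e-05). The lowest of the gel values came from replicate 1, the library with the lowest weight.

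Of the remaining classes, Col7a1, the anchoring fibril chain below epithelia, had 184, 338 and 252 in tumours, 1069, 1099 and 1207 on the dish, and 712, 921 and 831 in the gel. It was higher than tumours in both cultures (adjusted p = 7.36e-06 in 2D culture and 3.4e-05 in 3D bioink). The multiplexins carry an antiangiogenic fragment at their end, endostatin in the case of Col18a1. Col18a1 had 18551, 18305 and 18608 in tumours, 14682, 15229 and 16460 on the dish, and 9731, 12029 and 11252 in the gel. Col15a1 had 461, 496 and 515 in tumours, 746, 672 and 639 on the dish, and 881, 1044 and 869 in the gel. The multiplexins thus had opposite group orders, each without overlap. The calls for Col18a1 in 2D culture against tumours (-0.26, adjusted p = 0.0153) and in 3D bioink against 2D culture (-0.49, adjusted p = 0.000327) were lost with quantile normalization (adjusted p = 0.41 and 0.118), and the former also without 2D culture replicate 1 (adjusted p = 0.0603).

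The transmembrane chain Col23a1 had 164, 115 and 198 in tumours, 11, 16 and 15 on the dish, and 225, 246 and 218 in the gel. It was low on the dish alone, with log2 differences of -3.40 (SE 0.26, adjusted p = 2.4e-06) against tumours and 3.96 (adjusted p = 9.77e-07) for 3D bioink against 2D culture. Col17a1, the hemidesmosome chain, had 23, 38 and 45 in tumours, 37, 14 and 41 on the dish, and 60, 73 and 127 in the gel. Its calls for 3D bioink (adjusted p = 0.0428 against tumours and 0.0195 against 2D culture) were lost without single libraries. Against tumours these were tumour replicate 1 or 2 and 3D bioink replicate 2 or 3 (adjusted p = 0.0684 to 0.153), and against 2D culture they were 2D culture replicate 2 and 3D bioink replicate 3 (0.0667 and 0.0784). They were lost as well without a filter on low values against tumours (0.0575) and with quantile normalization against 2D culture (0.104). Col28a1 ran from 5 to 40, and its call in 2D culture (adjusted p = 0.0291) was lost without tumour replicate 1 or 2 or 2D culture replicate 1 or 2 (adjusted p = 0.0564 to 0.101), with quantile normalization (0.212) and with the replicate block (0.0562). The 8 untested genes (Col19a1, Col22a1, Col6a4, Col6a5, Col6a6, Col13a1, Col25a1 and Col26a1) reached at most 20 in any library.

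Of the 24 collagens with a mean of at least 500 in a group, 17 were called in all 3 comparisons, which gives the order of their groups in the main fit. For Col3a1, Col9a2, Col9a3, Col18a1 and Col6a2, a call that this order needs was lost under other settings, as given above. The order 3D bioink, 2D culture, tumours held for 8 (Col1a1, Col1a2, Col2a1, Col5a2, Col4a2, Col6a1, Col6a2 and Col15a1). Tumours were highest for 6, of which Col3a1, Col9a2 and Col16a1 were lowest on the dish and Col9a1, Col9a3 and Col18a1 lowest in the gel. The dish was highest for Col5a3 and Col11a1.

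Chains that assemble together, or share a start region, were then set against each other by the log2 ratio of their values in each library. Transcript length cancels when such a ratio is compared between groups, but the ratio itself is not a ratio of molecules. For 7 pairs and 3 comparisons, 21 exact two-sided permutation tests were run, and the smallest p that 3 against 3 libraries allow is 0.1. The ratio did not overlap between groups in 16 of the 21, each with that smallest exact permutation p of 0.1 (0.131 after Benjamini-Hochberg adjustment), so no ratio could pass 0.05. Of all single genes tested, 63.9% to 67.6% did not overlap in the 3 comparisons. No such share was computed for ratios of other gene pairs, so the count is not a result about partner chains.

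The type I ratio, Col1a1 over Col1a2, was 2.51, 3.33 and 3.36 in tumours, 0.70, 0.67 and 0.57 on the dish, and 0.48, 0.44 and 0.39 in the gel, as log2 values. Of the values themselves, the mean of Col1a1 was 8.17 times that of Col1a2 in tumours, 1.57 times in 2D culture and 1.36 times in 3D bioink. Type V went the same way, with Col5a1 over Col5a2 at 5.22 ± 0.35 in tumours, 1.42 ± 0.057 in 2D culture and 0.75 ± 0.19 in 3D bioink (SD, n = 3). Col6a1 over Col6a2 was 2.81 ± 0.31, 1.08 ± 0.051 and 1.29 ± 0.070. In these 3 pairs, the chain with the smaller value in tumours thus differed by more between tumours and cultures than its partner. Col6a3, the type VI chain outside the pairs, did not follow this in 2D culture. Its tumour mean of 120 was close to that of Col6a2 (106), but its 2D and tumour libraries overlapped.

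Pairs encoded head to head varied in how far they moved together. Col4a1 over Col4a2 was close to 0 on the log2 scale outside the library listed at 0, at -0.66 and -0.02 in tumours, 0.35, -0.07 and -0.72 on the dish, and -0.25, -0.44 and 0.06 in the gel, with overlap in all 3 comparisons. Tumour replicate 3 stood at -8.99. Col4a4 and Col4a3 lie 71 bases apart, and Col4a3 over Col4a4 was -0.39 ± 0.40 in tumours, -0.58 ± 0.32 in 2D culture and -1.30 ± 0.23 in 3D bioink, lower in the gel without overlap. Col4a6 and Col4a5 lie 1308 bases apart on the X chromosome, and Col4a5 over Col4a6 was 8.52 ± 0.43, 5.97 ± 0.45 and 6.74 ± 0.45, a ratio that rests on Col4a6 values of 2 to 26. Col3a1 and Col5a2, which end 24614 bases apart tail to tail on chromosome 1, had opposite signs against tumours in both cultures, as their values above show. Col8a1 over Col8a2 was -0.25 ± 1.5, 5.52 ± 0.72 and 2.46 ± 0.098.

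**Figure D4:**
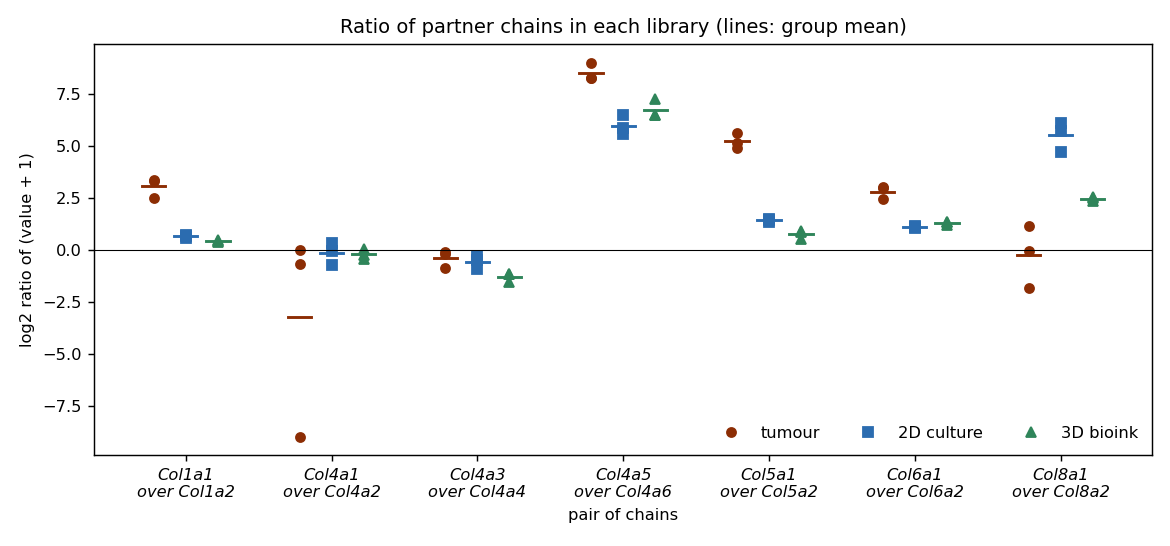
Log2 ratio of (value + 1) of 7 pairs of chains in each library (points) with the group mean (lines). For the type I, V and VI pairs the tumour libraries lie above all culture libraries, and the tumour mean of Col4a1 over Col4a2 is pulled down by replicate 3 at -8.99.

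The genes that modify, process, cross-link, bind and degrade collagen were described from a list of 74, of which 65 were tested. In 3D bioink against tumours 34 were higher and 18 lower (median log2 difference 0.55), in 2D culture against tumours 31 and 25 (0.19), and in 3D bioink against 2D culture 30 and 18 (0.24). The shares called were 80.0%, 86.2% and 73.8%, against 64.4%, 54.3% and 59.2% of all tested genes, whose medians were -0.11, 0.01 and -0.02. With equal upper quartiles the last split was 35 and 13. By role, the shares called ran from 57.1% to 100%, from 50% to 100% and from 44.4% to 100% in the order of the comparisons. Shares were 84.6%, 84.6% and 100% for hydroxylation, 100%, 100% and 50% for glycosylation, and 66.7%, 66.7% and 55.6% for chaperones and export. They were 83.3%, 100% and 66.7% for propeptide processing, 100%, 100% and 60% for cross-linking, and 83.3%, 50% and 100% for assembly partners. Receptors and uptake gave 88.9%, 88.9% and 44.4%, proteases 57.1%, 100% and 100%, and regulators 75%, 100% and 62.5%.

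Enzymes that hydroxylate prolines and lysines in the helix were divided, with 6 of 13 higher and 5 lower in 3D bioink against tumours, 5 and 6 in 2D culture, and 5 and 8 between the cultures. P4ha1, a catalytic subunit of prolyl 4-hydroxylase, had 2422, 2422 and 2074 in tumours, 2728, 2844 and 2569 on the dish, and 5261, 5270 and 5459 in the gel. Plod2, the lysyl hydroxylase that acts on the chain ends and so sets the kind of cross-link, had 1991, 2068 and 1931 in tumours, 1474, 1506 and 1663 on the dish, and 6228, 5986 and 6305 in the gel. Both were highest in the gel, Plod2 3.09-fold over tumours (adjusted p = 1.77e-08) and 3.99-fold over 2D culture (adjusted p = 9.7e-09). P4ha2 was 2.79-fold above tumours in 3D bioink (adjusted p = 7.1e-07), while Ppib, a prolyl isomerase of the same complex, was 2.30-fold lower (adjusted p = 3.42e-08). In 2D culture against tumours the largest changes of this role were in P4ha3, another catalytic subunit, 4.17-fold higher (adjusted p = 1.97e-05), and P3h2, a prolyl 3-hydroxylase, 2.53-fold lower (adjusted p = 5.5e-07). Of the 2 galactosyltransferases, Colgalt2 was higher and Colgalt1 lower than in tumours in each culture.

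Of 9 chaperone and export genes, 4 were higher and 2 lower than in tumours in each culture, and 2 were higher and 3 lower in 3D bioink than in 2D culture. The shares called for 3D bioink, 66.7% against tumours and 55.6% against 2D culture, lay near those of all tested genes (64.4% and 59.2%). Serpinh1, the collagen chaperone HSP47, had 475, 244 and 642 in tumours, 1066, 494 and 585 on the dish, and 121, 143 and 389 in the gel. Its values scattered within groups, tumours overlapped with both cultures, and only the gel against the dish was called (log2 -1.83, adjusted p = 0.00913). Mia3, which loads collagen into transport carriers, was 2.36-fold higher in 3D bioink than in tumours (adjusted p = 3.55e-06), and the isomerase Fkbp10 was 1.47-fold lower (adjusted p = 0.00074). In 2D culture Fkbp14 was 1.73-fold higher (adjusted p = 0.00318). Tmem38b, an endoplasmic reticulum ion channel, had 175086, 176600 and 197311 in tumours, 144899, 77829 and 48218 on the dish, and 144007, 68985 and 97758 in the gel. In tumours this exceeded all collagens together (126253 to 129348), and whether the counts belong to this gene was not tested. Its fall in 2D culture (-1.16, adjusted p = 0.021) was lost without tumour replicate 3, 2D culture replicate 2 or 2D culture replicate 3 (adjusted p = 0.0578 to 0.0698). Of 6 tested propeptide processing genes, 3 were higher in each comparison and 2, 3 and 1 were lower, in the order used above. Adamts2, which removes the amino-terminal propeptide, had 72, 89 and 89 in tumours, 287, 261 and 338 on the dish, and 428, 530 and 625 in the gel, with the groups apart. Bmp1, which removes the carboxy-terminal propeptide, had 1737, 1819 and 1592 in tumours, 696, 605 and 553 on the dish, and 881, 1579 and 1432 in the gel, and was lowest on the dish (-1.48 against tumours, adjusted p = 0.000105). Its enhancer Pcolce was 2.56-fold lower in 3D bioink than in tumours (adjusted p = 1.61e-08), and the related Pcolce2 was 4.67-fold higher in 2D culture (adjusted p = 3.88e-07).

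Of the 5 lysyl oxidases, which cross-link collagen outside the cell, 4 were higher and 1 lower than in tumours in each culture. Lox itself was listed at 0, 9 and 17 in tumours, 2161, 2161 and 2189 on the dish, and 2638, 2147 and 2195 in the gel, with no difference called between the cultures (adjusted p = 0.932). Loxl3 had 1335, 1186 and 1175 in tumours, 2726, 2567 and 2673 on the dish, and 560, 708 and 675 in the gel, so it was 4.10-fold lower in the gel than on the dish (adjusted p = 1.13e-07), whereas Loxl2 was 2.38-fold higher in the gel (adjusted p = 2.11e-06).

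Of 6 tested partners of fibril assembly, 4 were higher and 1 lower in 3D bioink than in tumours, and 5 higher and 1 lower than in 2D culture. Dcn and Lum, counted as higher in both, passed the filter on their 3D means alone. Bgn, the proteoglycan biglycan, had 64, 58 and 57 in tumours and 1027, 1032 and 971 in 2D culture, a 16.9-fold rise (adjusted p = 2.93e-10), and 2681, 2548 and 2712 in 3D bioink. Dcn, decorin, had 1, 0 and 11 in tumours, 3, 4 and 0 on the dish, and 329, 405 and 389 in the gel. Sparc, a collagen-binding glycoprotein, had 16118, 16584 and 14919 in tumours, 31420, 31023 and 30232 on the dish, and 10643, 10064 and 10603 in the gel, 2.96-fold lower in the gel than on the dish (adjusted p = 1.82e-08). Fn1, fibronectin, was 3.74-fold lower in 2D culture than in tumours (adjusted p = 5.84e-05). The difference of Sparc between 3D bioink and tumours (log2 -0.60, adjusted p = 4.49e-06) was lost with quantile normalization (-0.12, adjusted p = 0.0636).

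Of 9 tested receptor and uptake genes, 7 were higher and 1 lower than in tumours in each culture. Mrc2, the endocytic collagen receptor, had 89, 36 and 75 in tumours, 1804, 1983 and 2053 on the dish, and 1504, 1909 and 1669 in the gel. Ddr2, a receptor kinase for fibrillar collagen, had 796, 980 and 603 in tumours, 1977, 2585 and 1574 on the dish, and 2528, 2749 and 1918 in the gel. Both cultures lay above the tumours for these genes (adjusted p at most 0.000457). Between the cultures, Ddr1 was 1.34-fold higher in the gel (adjusted p = 0.00109). The fall of Itga1, a collagen-binding integrin chain, from dish to gel (-0.41, adjusted p = 0.0214) was lost without 2D culture replicate 1 or 2 or 3D bioink replicate 2 or 3 (adjusted p = 0.0597 to 0.0838), and under each of the other scalings (0.0643 to 0.133). Lair1, an inhibitory collagen receptor of leukocytes, was 7.65-fold lower in 3D bioink and 19.1-fold lower in 2D culture, beside the low microglial markers given above, whose part in the result was not tested.

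Of 7 tested collagenases and collagen proteases, 2 were higher and 2 lower in 3D bioink than in tumours, 2 higher and 5 lower in 2D culture, and 6 higher and 1 lower in 3D bioink than in 2D culture. The shares called were 57.1%, 100% and 100%, against 64.4%, 54.3% and 59.2% of all tested genes, so the first lay near that of all genes. Mmp14, a membrane collagenase, had 4450, 4413 and 4167 in tumours, 1184, 1251 and 1284 on the dish, and 2426, 2622 and 2492 in the gel. Mmp13, a secreted collagenase, had 330, 321 and 279 in tumours, 6, 9 and 2 on the dish, and 581, 514 and 556 in the gel. Both were lowest on the dish, where Mmp13 differed from tumours by -5.71 (SE 0.38, adjusted p = 8.8e-07). Ctsk, the cathepsin that cuts within the helix, was 22.6-fold above tumours in 3D bioink (adjusted p = 1.94e-06), and Mmp15 was 1.68-fold lower in the gel than on the dish (adjusted p = 7.59e-06). Of the 8 tested transcription regulators, 3 were higher and 3 lower in 3D bioink than in tumours, 3 and 5 in 2D culture, and 4 and 1 between the cultures. Sox9 rose 16.0-fold (adjusted p = 4.49e-07) and Tgfb1, a growth factor that raises fibrillar collagen in fibroblasts, fell 3.01-fold (adjusted p = 8.25e-07) in 3D bioink against tumours. Scx, a tendon transcription factor, was 2.49-fold lower in the gel than on the dish (adjusted p = 0.014).

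**Figure D5:**
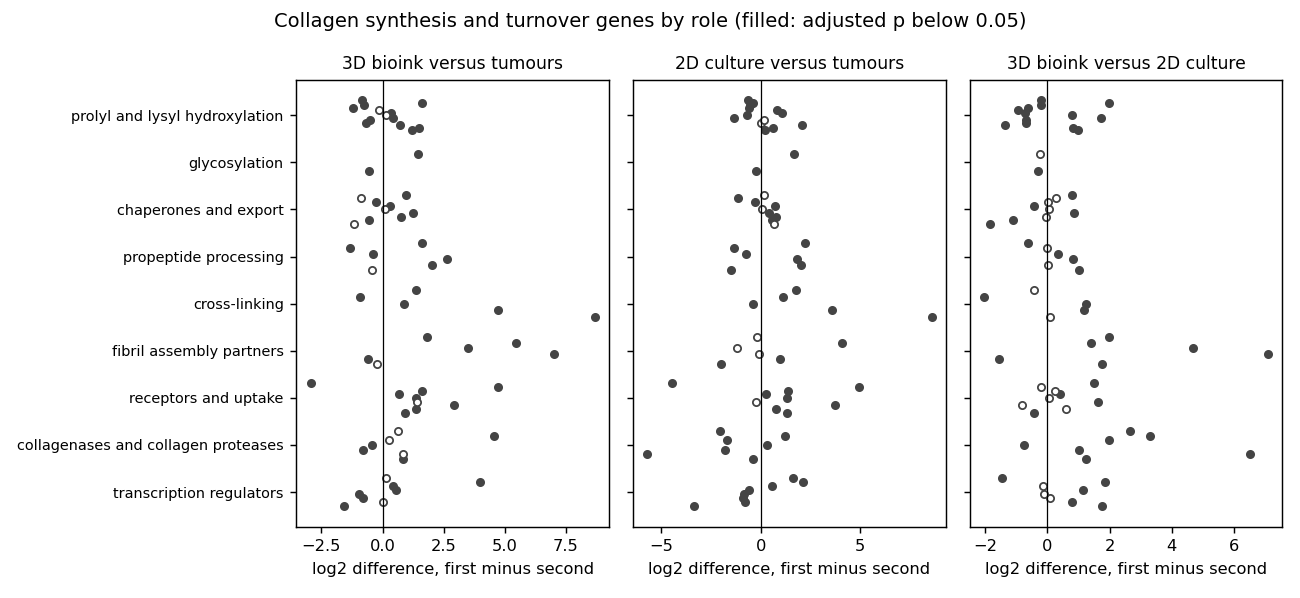
Log2 differences (horizontal axis, first group minus second) of the 65 tested genes of collagen synthesis and turnover, by role (vertical axis), 1 point per gene, filled where the adjusted p was below 0.05. Of the 5 cross-linking genes 4 lie to the right of 0 in both panels against tumours, and 6 of the 7 proteases lie to the right of 0 between the cultures.

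Markers of cells that can make collagen were set beside these genes. The labels name no fibroblasts among the cells added. The summed value of 10 fibroblast markers was 276 to 309 in tumours, 491 to 629 in 2D culture and 1864 to 2006 in 3D bioink. Of the 5 that were tested, 4 were higher in 3D bioink than in tumours and 5 higher than in 2D culture. Among all tested genes, 27.1% and 27% were higher there. Dcn and Lum passed the filter on their 3D means alone (374 and 45), so their rise there is not independent of the filter. Of the untested markers, Mfap5, Twist2 and Clec3b had higher means on the dish than in the gel, and Dpt and Pi16 lower means. In 2D culture against tumours 2 (Pdgfra and Fbln1) were higher and 1 (Fap) lower, with a median log2 difference of -0.09. The shares called in 3D bioink and 2D culture against tumours were 80% and 60%, against 64.4% and 54.3% of all tested genes. Pdgfra, which also marks oligodendrocyte precursors, made up 216 to 231 of the sum in tumours, 321 to 437 in 2D culture and 900 to 1105 in 3D bioink. Dcn and Lum were listed at 0 to 4 in 2D culture, and Dpt and Twist2 at 0 in every tumour library. For 10 pericyte and mural markers the sum was 1764 to 1970, 1103 to 1135 and 2547 to 2645, and for 8 mesothelial markers it was 497 to 580, 650 to 1030 and 6228 to 7183. Krt8 made up most of the last sum, at 5545 to 6575, and Msln (321 to 650) and Krt19 (199 to 239) most of the sum in 2D culture. The order of the fibroblast sums, and of Pdgfra alone, is that of Col1a1, Col1a2, Col5a2, Col6a1 and Col6a2, among others. The mesothelial sums and the cartilage and bone sums have the same order, so it is not particular to the fibroblast markers. Within the fibroblast list, Dcn, Lum and Fap do not follow it, with lower means in 2D culture than in tumours. The part of these markers in the collagen differences was not tested.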

How the data were processed

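RNA from 9 libraries, 3 per group, was sequenced from strand-specific libraries made with 14 PCR cycles from 25 to 75 ng, per the labels' protocols. For each gene symbol the authors deposited a score per library, namely normalized counts in rounded form. The tools DESeq, DESeq2 1.24.0, RSEM and kallisto and the build mm10 are named, per the submitters' processing notes, with no role or order. Whether counting used strand is not given in the sources used here. Raw counts and read depth were not analysed here, so no counting intervals are given.

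Of 20778 rows, 2865 were at 0 in all libraries, and 13773 with a mean of at least 10 were tested. A limma model (3.58.1, R 4.3.3, trended eBayes) was fitted to log2(value + 1) of all 9 libraries. Log2 differences are on that scale, and fold changes are ratios of group means, so they can differ. Adding 1 shrinks changes of low genes, whereas a single library near 0 can widen the log2 difference. Col4a1 in 3D bioink against tumours thus has a log2 difference of 6.04 beside a 13.7-fold ratio of means. P-values were adjusted by Benjamini-Hochberg over all tested genes, with a threshold of 0.05. The model was tested on simulated data. Values per kilobase used the longest protein-coding transcript, and coordinates came from the same annotation of GRCm38.p6.

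Of the tested collagens, 32 reached a mean of 10 in all 3 groups, 3 in 2 groups and 1 in 1 group. The members and lists were chosen with earlier results of these data known. The rule for values by library took collagens with a mean of at least 500 in a group, and the member with the largest called difference per class. Of the synthesis and turnover list it took the largest called rise and fall per role with a mean of at least 100, and 10 fixed genes. Other names and values were chosen after the values were seen. Alternatives were pseudocounts, filters, scalings, library weights, 2-group fits, a replicate block and leaving out each library.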

Additional observations from a re-analysis of the deposited data

How the results depend on the processing

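Over up to 16 alternatives per gene and comparison, the collagens taken by the naming rule gave 1429 values by gene. Of these, 1369 kept their direction and their side of the threshold, 34 lost the call, 16 gained one and 10 changed sign. The tested Col4a3, Col4a4, Col4a6, Col10a1, Col14a1 and Col20a1, most of them low, fell outside that rule and are not in these numbers. The synthesis and turnover genes taken by the rule gave 1152, of which 1132 kept both, 14 lost the call, 5 gained one and 1 changed sign. The collagens lower in 2D culture than in tumours were 9 with quantile normalization, against 14. Pseudocount 5 changed the difference in the log2 ratio of Col4a5 to Col4a6 from -1.77 to -1.05 in 3D bioink and from -2.55 to -1.91 in 2D culture, each against tumours, and raising the low Col4a6 values is what that setting does.

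Differences that changed sign were small or of low genes, and the cause was not tested. For 3D bioink against tumours, quantile normalization gave 0.067 for Col9a2 and 0.099 for Col12a1, equal upper quartiles gave 0.065 for Col12a1 and 0.067 for Col8a2, and with each library left out Col8a2 ran from -0.34 to 0.36, the latter without tumour replicate 3. For 2D culture against tumours, quantile normalization gave 0.62 for Col24a1 and 0.36 for Col17a1, and with each library left out Col24a1 ran from -0.88 to 0.37 (above 0 without tumour replicate 3 or 2D culture replicate 2) and Col17a1 from -0.56 to 0.19 (above 0 without 2D culture replicate 2). Library weights gave -0.042 for Ddr2 in 3D bioink against 2D culture.

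Leaving out each library in turn, the collagens higher and lower numbered 18 to 21 and 7 to 8 in 3D bioink against tumours, 14 to 15 and 11 to 14 in 2D culture against tumours, and 18 to 20 and 7 in 3D bioink against 2D culture. The synthesis and turnover genes numbered 32 to 35 and 18 to 19, 29 to 31 and 24 to 25, and 28 to 30 and 15 to 18.

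Whether the replicate numbers pair the libraries was not settled. Deviations from the group means correlated at -0.03 to 0.08 between libraries of the same number. Between 3D bioink and tumours each library correlated best, though weakly, with its own number (0.034, 0.048 and 0.080). Libraries of unlike number gave -0.063 to 0.009 there. In the other comparisons this did not hold for every library. With the replicate block, collagens higher and lower were 20 and 7, 15 and 13, and 21 and 8 in the 3 comparisons.

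The read depth is unknown, so the limit that counting sets on low genes such as Col24a1 and Col4a6 cannot be given.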
